A study of Mus musculus with 2 samples.

Results

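The genes described here are 32 genes of glucose uptake and glycolysis, followed across the leukocytes of mouse tumours. They were chosen by name, as the rows of the deposited feature table that carry their symbols, and make up 32 of its 32285 genes. Aldoa stands on 2 rows, so 33 rows were read. The second Aldoa row held 3 UMIs (unique molecular identifiers, each 1 counted transcript) in both libraries together. All 32 genes had a UMI in each library. They took 0.674% of the UMIs of the WT library and 0.649% of those of the library labelled Ythdf2 KO.

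The study sorted CD45+ cells (CD45 marks all leukocytes) from digested tumours of C57BL/6 mice and counted their transcripts cell by cell, with 1 droplet library for each genotype. The groups are WT and Ythdf2 KO. Ythdf2 encodes a reader of m6A, the methylated adenosine of mRNA, that promotes decay of marked transcripts. The sample labels speak of knockout tumours and the design text of conditional knockout mice, and neither states in which cells the gene was removed. Tumour line, Cre driver, age and number of animals are not given in the sources used here. Collagenase and DNase digestion, red cell lysis and the CD45+ sort were shared by both groups.

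Levels are summed UMIs of a gene in a gate per 1000000 UMIs of that gate (CPM). Ythdf2 itself stood at 44.5 CPM in gated WT barcodes and 42.7 in the Ythdf2 KO ones. The targeted gene does not separate the libraries, so Ythdf2 KO stands below for the library labelled so, and every direction rests on the labels alone. A deletion outside the counted end of the transcript would leave this count as it is, and that was not tested. The WT library held 20886 barcodes and 168912853 UMIs (median 5554 per barcode), and the Ythdf2 KO library 16312 and 134066610 (median 5617). The libraries shared 101 barcode sequences. Ptprc, which encodes CD45, stood at 874 and 860.0 CPM in gated barcodes. Barcodes were sorted into 12 gates by UMIs of marker genes. Those with markers of more than 1 lineage (27.2% and 28.2% of kept barcodes) were set aside, leaving 13240 and 10024 gated barcodes. A gate name stands for barcodes that resemble that cell type by its markers. Red cell genes summed to 0.590 CPM in WT macrophages and 336 in Ythdf2 KO ones, and at 0 and 229 in neutrophils. What part this played in any value below was not tested.

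Glycolysis splits glucose into pyruvate in the cytosol and yields ATP without oxygen. Glucose enters through facilitative transporters, is trapped by hexokinase, is committed by phosphofructokinase, and leaves as lactate when pyruvate is reduced by lactate dehydrogenase. In tumours, macrophages and neutrophils are known for heavy glycolytic use, T cells switch to it on activation, and many of its genes are targets of the hypoxia-inducible factor HIF-1.

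Promoter sequence is shown for 4 members whose values are central below: Hk2 and Pdk1, which were lower in the Ythdf2 KO macrophages, Eno3, which was higher, and Ldhb, which stood apart in plasmacytoid dendritic cells. Each sequence is the 250 bases upstream of the RefSeq start (GRCm38.p6), written 5′ to 3′ along the gene's strand, with capitals marking the core of a hypoxia response element. The letters searched were ACGTG and GCGTG on both strands, so that CACGT and CACGC are the same matches read from the other strand. Overlapping matches were counted apart, so that 1 CACGTG counts as 2. The Hk2 window is chr6:82774455-82774704 on the minus strand and holds 2 matches. The Pdk1 window is chr2:71872974-71873223 on the plus strand, the Eno3 window chr11:70656926-70657175 on the plus strand and the Ldhb window chr6:142507958-142508207 on the minus strand, each with 1 match. A second RefSeq window of Pdk1, chr2:71874654-71874903, held 0 matches and is not printed. A stretch just downstream of the start was found in a GENCODE transcript for Hk2, Pdk1 and Ldhb but not for Eno3, so the Eno3 start is less certain.
Hk2: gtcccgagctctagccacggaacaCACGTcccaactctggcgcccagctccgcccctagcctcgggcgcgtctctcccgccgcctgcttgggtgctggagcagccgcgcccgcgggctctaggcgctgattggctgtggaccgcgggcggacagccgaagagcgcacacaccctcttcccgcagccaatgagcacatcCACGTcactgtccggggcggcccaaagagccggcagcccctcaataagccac
Pdk1: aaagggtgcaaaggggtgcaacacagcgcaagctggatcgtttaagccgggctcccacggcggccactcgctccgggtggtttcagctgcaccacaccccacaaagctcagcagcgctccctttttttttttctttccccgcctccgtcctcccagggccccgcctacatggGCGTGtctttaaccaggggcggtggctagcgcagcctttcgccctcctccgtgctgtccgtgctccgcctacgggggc
Eno3: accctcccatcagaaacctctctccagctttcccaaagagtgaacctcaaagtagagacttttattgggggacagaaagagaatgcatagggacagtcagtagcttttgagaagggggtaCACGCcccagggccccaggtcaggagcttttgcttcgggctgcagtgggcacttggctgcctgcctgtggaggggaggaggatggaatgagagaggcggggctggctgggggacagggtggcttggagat
Ldhb: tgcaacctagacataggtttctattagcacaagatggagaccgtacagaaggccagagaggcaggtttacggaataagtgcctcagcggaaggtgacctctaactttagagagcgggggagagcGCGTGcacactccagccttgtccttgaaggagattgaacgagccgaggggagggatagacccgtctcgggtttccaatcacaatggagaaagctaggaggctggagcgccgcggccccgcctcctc
At least 1 match lay upstream of 26 of the 31 members with a window, all but Slc2a3, (83.9%), against 41.5% of all 27025 genes with a window. At least 2 matches in 1 window, with a CACGTG counted as 2, were found for 16 members, against 18.7% of all genes. A match is a run of letters and not a bound site.

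Levels are given with WT first and Ythdf2 KO second. A ratio is Ythdf2 KO over WT, and differences are given on the log2 scale. With 1 library per genotype no test was possible, and no replicate stands behind any difference given here. The intervals (95%) cover counting error only. In sums over a gate, fewer expressing cells and less RNA per cell cannot be told apart. Values are not divided by transcript length, so a gene is compared across gates and libraries and not with another gene. A ratio was taken for genes with at least 100 UMIs in the 2 libraries together, or at least 20 in subsets of the T cell gate.

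The 32 genes together were highest in monocytes and macrophages and lowest in B cells. The gate called intermediate holds the monocyte and macrophage barcodes that met the limits of neither the macrophage, the monocyte nor the patrolling gate. Its complement genes (C1qa, C1qb and C1qc) summed to 682 and 515 CPM, between monocytes (64.1 and 57.0) and macrophages (8052 and 7426). Its median depth was 3300 and 3769.5 UMIs, below the 5018 and 6053 of macrophages, and the limits are UMI counts. The 32 genes stood at 7945 and 7020 CPM there. Monocytes stood at 7560 and 7236, macrophages at 6812 and 6602. Neutrophils (6330 and 5998) and NK cells (6257 and 5913) followed, then conventional type 1 dendritic cells (cDC1; 5401 and 5174) and patrolling monocytes (5244 and 4730). Mature dendritic cells were at 3830 and 3352 and plasmacytoid dendritic cells at 3613 and 3130. B cells were at 1917 and 1311. T cells were at 3974 in WT and 5160 in Ythdf2 KO, and were the only gate of the 12 in which the sum was higher in the Ythdf2 KO library. Mature and plasmacytoid dendritic cells differed from each other by less than the libraries differed within either gate. The cDC2 gate held 39 and 13 barcodes. Its 4 members with a ratio were lower, where 50.5% of all genes were. None passed 1.5-fold, where 4.49% of all genes were at least 1.5-fold lower and 6.36% higher.

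**Figure D1:**
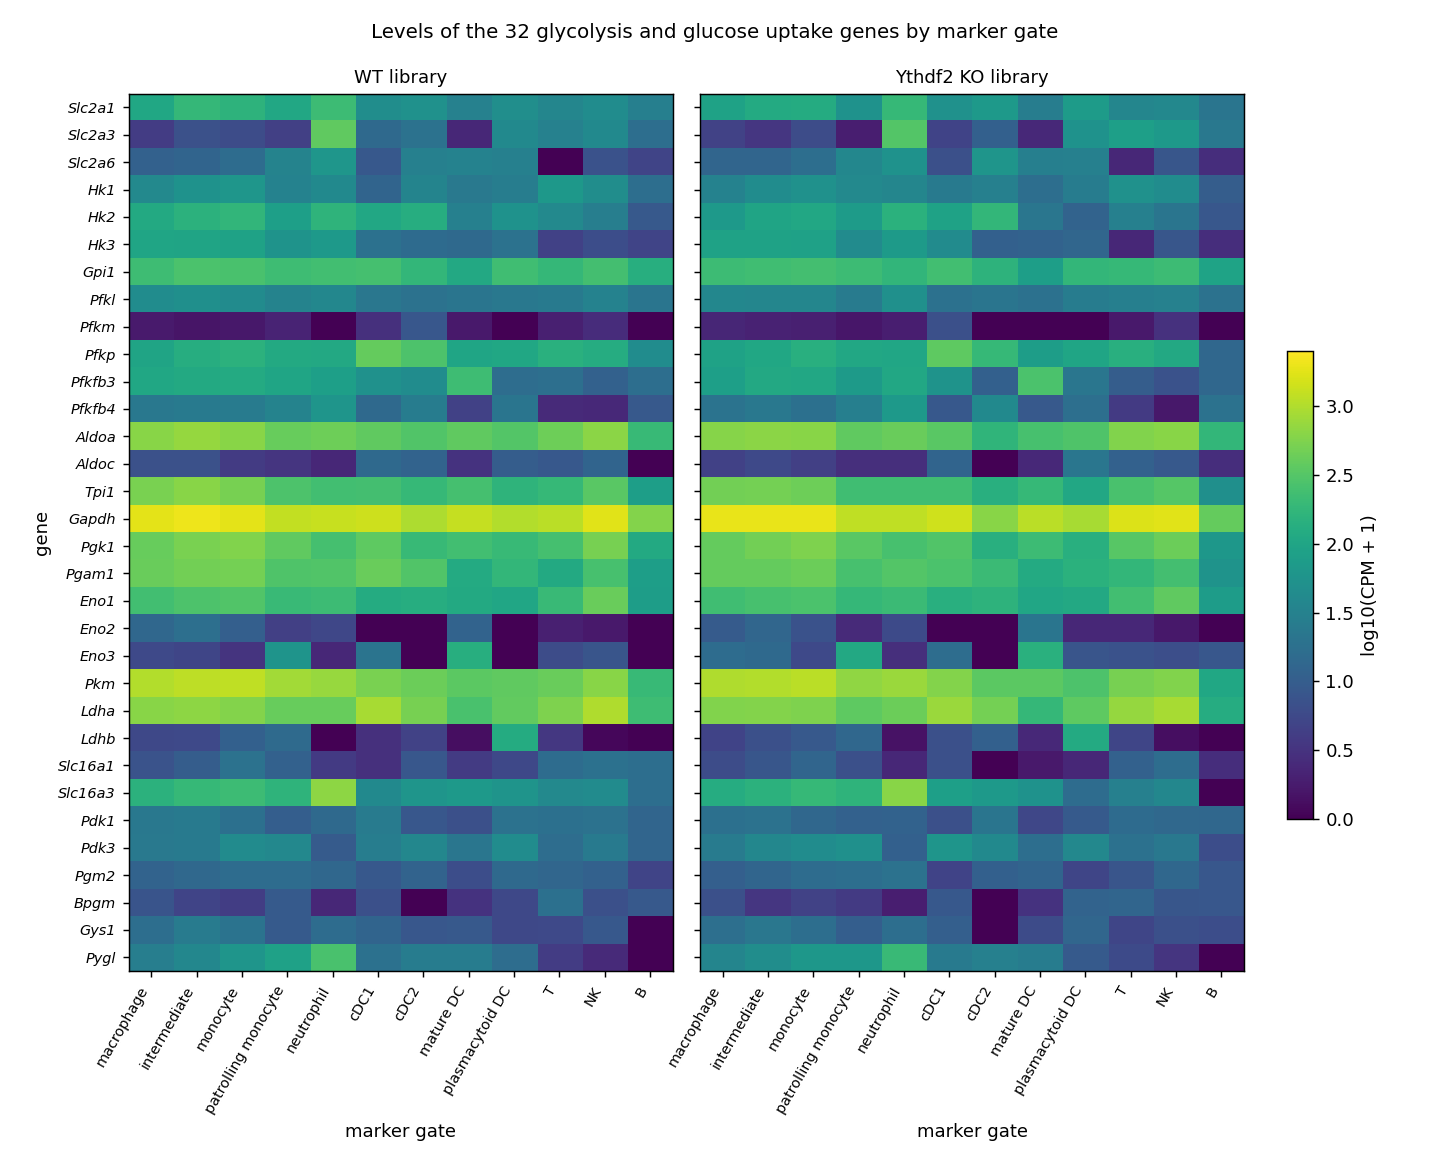
Level of each of the 32 genes (lines of the map) in each gate and library (columns), as CPM on a colour scale that is logarithmic. Gapdh, Pkm, Aldoa and Ldha are high in most gates, while Slc2a3, Slc16a3 and Pygl stand out in neutrophils, Eno3 in mature dendritic cells and Ldhb in plasmacytoid dendritic cells.

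Neutrophils held the highest WT level of all 3 glucose transporters, and the gates that followed differed between them. Slc2a1 (GLUT1, the basal transporter of many dividing and hypoxic cells; chromosome 4, 119108711 to 119137983, plus strand of mm10) was highest in neutrophils, at 211 and 187 CPM. In all 8 gates in which it had a ratio, the Ythdf2 KO value was the lower one. In the intermediate gate it stood at 182 and 120 (ratio 0.661, interval 0.603 to 0.723), in monocytes at 158 and 123 (0.783, 0.739 to 0.830) and in macrophages at 106 and 90.9 (0.854, 0.798 to 0.913). Patrolling monocytes showed the lowest ratio, with 107 and 52.9 CPM (0.493, 0.381 to 0.642), although this rests on 93 and 172 UMIs in 119 and 436 barcodes. NK cells (43.8 and 37.3) went the same way, whereas T cells stood at 35.6 and 35.5. With barcodes that carry markers of a second lineage counted in their leading gate, the Slc2a1 log2 ratio was -0.45 in the intermediate gate and -0.58 in patrolling monocytes, just under 1.5-fold. Slc2a1 overlaps the small genes Gm12867 and Gm12868 in the annotation, and how shared reads were split is not given in the sources used here.

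Slc2a3 (GLUT3, a high-affinity transporter known from neurons and activated leukocytes; chromosome 6, 122727809 to 122801640, minus strand) was highest in neutrophils, and plasmacytoid dendritic cells (40.2 and 53.7 CPM), NK cells and T cells followed in both libraries. Neutrophils held 371 and 309 CPM (ratio 0.834, interval 0.743 to 0.938), against 3.05 and 3.74 in macrophages. In T cells it stood at 30.5 in WT and 82.1 in Ythdf2 KO, from 60 and 118 UMIs (ratio 2.69, 1.95 to 3.73). In NK cells it stood at 39.8 and 68.2, from 965 and 852 UMIs (1.71, 1.56 to 1.88). These are the 2 gates in which Slc2a3 was at least 1.5-fold higher in the Ythdf2 KO library. Its share of transporter UMIs went with this, from 46.2% to 69.0% in T cells and from 44.4% to 60.5% in NK cells, while in neutrophils it stood at 57.7% and 56.4%.

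Shares of barcodes with a UMI were also taken. After each barcode was thinned to 1000 UMIs, a Slc2a3 UMI was seen in 26.4% and 21.1% of neutrophils and in 2.86% and 5.81% of NK cells (39.3% and 31.5%, and 25.5% and 34.5%, before thinning). In macrophages, taken as a measure of free RNA, the thinned share was 0.318% and 0.136%. Median depth before thinning was 1957.5 and 1756 UMIs in neutrophils, 9910 and 8720 in NK cells and 5018 and 6053 in macrophages. In T cells the thinned shares were 2.49% (1.30 to 4.32) and 4.98% (2.88 to 7.97), whose intervals overlap. Thinning left out 22 and 61 neutrophils and at most 8 barcodes of each of the other gates named here.

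Slc2a6 (GLUT6, a transporter of inner membranes) took about the same share in mature dendritic cells of both libraries, 49.2% and 50.0% of transporter UMIs. Among gates with a ratio its level was highest in neutrophils, at 60.3 and 52.9 CPM. In patrolling monocytes it held 32.3 and 36.3, and its share there was 22.6% and 40.3%, beside the lower Slc2a1. No ratio of Slc2a6 passed 1.5-fold.

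**Figure D2:**
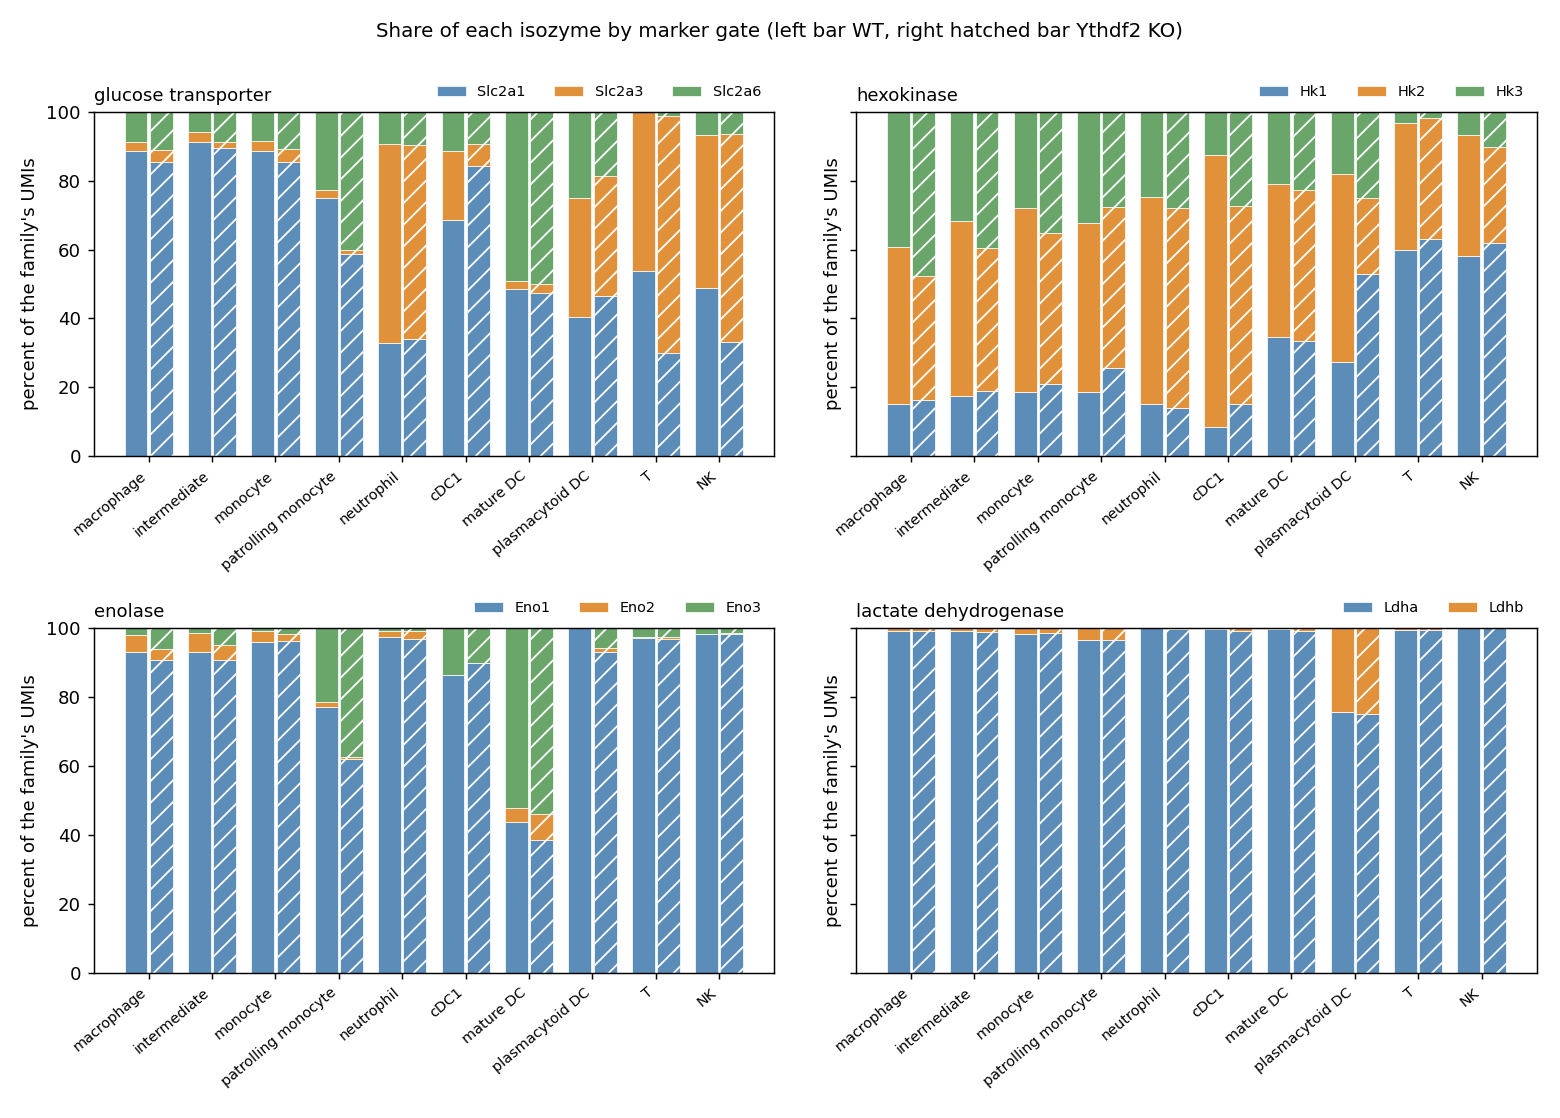
Share of each isozyme in the UMIs of its family (percent, left axes) by gate, for glucose transporters, hexokinases, enolases and lactate dehydrogenases. The left bar of each pair is WT and the hatched right bar Ythdf2 KO; Slc2a3 takes 69.0% in Ythdf2 KO T cells against 46.2% in WT, and Hk2 takes 36.0% in Ythdf2 KO macrophages against 45.6% in WT.

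Among the hexokinases, which phosphorylate glucose and so hold it in the cell, Hk2 differed most between the libraries. Hk2 (the inducible, mitochondria-bound isozyme; chromosome 6, 82725025 to 82774454, minus strand, overlapping Gm17034) was lower in the Ythdf2 KO library in all 9 gates with a ratio, of which mature dendritic cells turned to 0.22 on the log2 scale with second-lineage barcodes counted. In macrophages it stood at 116 and 68.9 CPM (ratio 0.596, interval 0.554 to 0.640). In the intermediate gate it stood at 153 and 95.1 (0.623, 0.563 to 0.689) and in monocytes at 172 and 109 (0.634, 0.597 to 0.673). In these 3 gates the difference was past 1.5-fold.

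Elsewhere the Hk2 difference was smaller and its interval included 1, as in neutrophils (160 and 148, -0.11 on the log2 scale), patrolling monocytes (81.9 and 71.7, -0.19) and T cells (39.2 and 29.2, -0.42). NK cells, at 27.6 and 19.8 (0.717, 0.617 to 0.831), were under 1.5-fold with an interval below 1. When barcodes with markers of a second lineage were counted in their leading gate, the Hk2 log2 ratio was -0.49 in macrophages, -0.53 in the intermediate gate and -0.51 in monocytes, which is under 1.5-fold. Thinned to 1000 UMIs, 10.3% and 6.33% of macrophages and 14.8% and 9.20% of monocytes carried an Hk2 UMI (38.4% and 30.5%, and 46.5% and 35.4%, before thinning). B cells, the lowest gate, carried one in 1.02% and 1.16%, at a median depth of 2030.5 and 1935 UMIs.

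Hk1 (the constitutive isozyme) was at similar levels in T cells, with 63.6 and 52.2 CPM, and monocytes, with 60.4 and 52.0, and in T cells it took 59.8% and 63.0% of hexokinase UMIs. It was lower in Ythdf2 KO macrophages (38.3 and 31.5, ratio 0.823, 0.734 to 0.922) and lower in 6 of 7 gates. Hk3, a myeloid isozyme, was at 99.5 and 91.2 in macrophages and 90.2 and 87.5 in monocytes, but at 3.56 and 1.39 in T cells. Beside the lower Hk2, the Hk3 share of hexokinase UMIs in macrophages was 39.3% in WT and 47.6% in Ythdf2 KO. Gpi1, the isomerase that turns glucose 6-phosphate into fructose 6-phosphate, was lower in 9 of 10 gates by small amounts, with 219 and 212 CPM in macrophages and 264 and 238 in monocytes.

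Phosphofructokinase, the committing step, was in most gates mostly Pfkp (platelet type) transcript, as a share of its UMIs, with Pfkl (liver type) second. In Ythdf2 KO B cells Pfkp was at 12.7 CPM, under 17.3 CPM, the lowest Pfkl level of any gate of that library. Pfkp was highest in cDC1, at 390 and 365 CPM, and slightly lower in the Ythdf2 KO library in all 10 gates with a ratio, between -0.36 and -0.08 on the log2 scale. Pfkl was lower in the 4 monocyte and macrophage gates, for example 49.0 and 35.0 in the intermediate gate (0.715, 0.601 to 0.848), and in neutrophils stood at 36.9 and 49.1 (1.33, 0.946 to 1.90). Pfkm, the muscle type, had under 100 UMIs in every gate and is not compared.

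The bifunctional enzymes that make the phosphofructokinase activator fructose 2,6-bisphosphate were split by cell type. Pfkfb3 was highest in mature dendritic cells, at 223 and 273 CPM (1.22, 1.07 to 1.39), where it took 98.4% and 97.2% of the pair's UMIs. It was lower in Ythdf2 KO macrophages (104 and 81.8; 0.786, 0.733 to 0.842) and higher in Ythdf2 KO neutrophils (82.2 and 109; 1.32, 1.05 to 1.67), where its log2 ratio turned from 0.40 to -0.12 with second-lineage barcodes counted. In NK cells it stood at 10.3 and 6.08 (0.590, 0.450 to 0.765), past 1.5-fold, but at -0.10 on the log2 scale when second-lineage barcodes were counted. Pfkfb4 was highest in neutrophils, at 58.8 and 69.0, and was lower in Ythdf2 KO monocytes, at 25.1 and 16.7 (0.666, 0.570 to 0.778).

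In macrophages and monocytes the abundant enzymes of the lower pathway differed little. Gapdh (glyceraldehyde 3-phosphate dehydrogenase, often used as a reference gene) was slightly higher in Ythdf2 KO macrophages, at 1820 and 1958 CPM (1.08, 1.06 to 1.09), and monocytes, at 1805 and 1923 (1.07, 1.05 to 1.08). It was slightly lower in the intermediate gate, at 2044 and 1944 (0.951, 0.929 to 0.974). Gapdh was thus on the other side of 1 from Hk2 and Slc2a1 in 2 of these gates. In the intermediate gate its log2 ratio was -0.07, and turned to 0.03 when barcodes with UMIs of Ace, Adgre4 or Treml4 were left out. Tpi1, triosephosphate isomerase, was lower in all 4 monocyte and macrophage gates, for example at 615 and 488 in the intermediate gate (0.793, 0.757 to 0.831).

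Aldoa, which splits fructose 1,6-bisphosphate, stood at 624 and 597 CPM in macrophages and 616 and 618 in monocytes. Pgk1, the first ATP-forming kinase, was at 401 and 400 in macrophages, and Pgam1, the mutase after it, at 420 and 398. Pkm (pyruvate kinase) was at 1026 and 977 in macrophages and 1172 and 1129 in monocytes. Eno1 was highest in NK cells, at 416 and 367; reads of Eno1 may be shared with its near copy Eno1b, so its values are uncertain. Aldoc, the brain-type aldolase, was low, at 6.00 and 3.61 in macrophages (0.602, 0.431 to 0.831).

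In the monocyte and macrophage gates the rarer enolases differed more than Eno1. Eno2, the neuronal type and a hypoxia-responsive gene, was lower in Ythdf2 KO macrophages, at 12.7 and 8.36 CPM (0.656, 0.528 to 0.812), and monocytes, at 9.77 and 6.09 (0.624, 0.480 to 0.806). Eno3, the muscle type (chromosome 11, 70657202 to 70662513, plus strand), was higher. In macrophages Eno3 stood at 4.67 and 14.8 (3.16, 2.48 to 4.05; 95 and 233 UMIs), in the intermediate gate at 4.15 and 13.4 (3.22, 2.11 to 5.04) and in monocytes at 2.26 and 4.61 (2.04, 1.37 to 3.04).

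Eno3 was high in 2 gates of both libraries. Mature dendritic cells held 136 and 144 CPM, 52.0% and 53.9% of their enolase UMIs, and patrolling monocytes held 56.5 and 111 (1.96, 1.45 to 2.70), which is 21.5% and 37.3%. The patrolling markers Ace, Adgre4 and Treml4, all 3 with UMIs in both libraries, summed to 17.1 and 67.5 CPM in macrophages and 36.1 and 73.9 in the intermediate gate. Macrophage barcodes that carried such a UMI were 5.1% and 14.7% of the gate and held Eno3 at 21.4 and 47.9 (2.24, 1.58 to 3.25). Those without one held 3.03 and 4.41 (1.46, 0.981 to 2.16), so that without these barcodes the macrophage difference was below 1.5-fold and its interval included 1. With second-lineage barcodes counted, the Eno3 log2 ratio was 0.98 in macrophages and 0.16 in monocytes. After thinning, 0.347% and 1.27% of macrophages and 9.24% and 12.4% of patrolling monocytes carried an Eno3 UMI (2.17% and 5.73%, and 22.7% and 39.7%, before thinning). In neutrophils, at 1.42 and 1.89 CPM, it was 0.163% and 0.102%.

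At the exit of the pathway, Ldha, the lactate-forming dehydrogenase subunit, was highest in NK cells (974 and 906 CPM) and cDC1 (897 and 774). It was slightly lower in Ythdf2 KO macrophages, at 622 and 574 (0.923, 0.898 to 0.948), and further lower in mature dendritic cells, at 262 and 182 (0.696, 0.601 to 0.804), where its log2 ratio turned from -0.52 to 0.36 with second-lineage barcodes counted. Ldhb, the heart-type subunit, was a transcript of plasmacytoid dendritic cells, at 123 and 120, where it took 24.2% and 24.9% of lactate dehydrogenase UMIs. No other gate was above 13.8 CPM of Ldhb in either library. Thinned to 1000 UMIs, 13.4% and 12.1% of plasmacytoid dendritic cells carried an Ldhb UMI, against 0.347% and 0.271% of macrophages (38.8% and 40.9%, and 2.19% and 2.53%, before thinning).

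Slc16a3 (MCT4, the lactate exporter of strongly glycolytic cells) was highest in neutrophils, at 656 and 619 CPM, with an interval of the ratio from 0.867 to 1.03. It was lower in Ythdf2 KO macrophages (153 and 125; 0.815, 0.770 to 0.862) and monocytes (210 and 188; 0.893, 0.850 to 0.937). Slc16a1 (MCT1) was low, and lower in all 4 gates with a ratio, past 1.5-fold in monocytes (18.0 and 11.7; 0.651, 0.539 to 0.783). Pdk1, the kinase that shuts pyruvate dehydrogenase and so keeps pyruvate from the mitochondrion, was lower in all 4 gates with a ratio as well. Its macrophage values were 22.0 and 17.2 (0.781, 0.669 to 0.910) and its monocyte values 16.8 and 12.5 (0.741, 0.615 to 0.890). Pdk3, a related kinase, was higher in the intermediate gate of the Ythdf2 KO library, at 24.3 and 36.9 (1.52, 1.24 to 1.86), and had a log2 ratio of 0.25 there with second-lineage barcodes counted.

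Glycogen and side-branch members were low except for Pygl, the glycogen phosphorylase known from liver and leukocytes. Pygl was highest in neutrophils, at 267 and 202 CPM (0.755, 0.656 to 0.869), and was higher in Ythdf2 KO macrophages, at 27.8 and 34.6 (1.24, 1.10 to 1.40). Gys1 (glycogen synthase) stood at 15.8 and 16.3 in macrophages, Pgm2 (phosphopentomutase and phosphoglucomutase) at 11.1 and 9.69, and Bpgm, the maker of 2,3-bisphosphoglycerate, at 6.74 and 5.70, each with an interval of the ratio that included 1. Pygl overlaps F730035M05Rik and Gys1 overlaps Ruvbl2 in the annotation.

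Over all members, the monocyte and macrophage gates leaned lower in the Ythdf2 KO library, by little. In macrophages 24 of 31 members with a ratio were lower and 7 higher, with a median log2 ratio of -0.13 beside -0.06 over all genes tested. Of all genes tested there, 61.4% were lower. Hk2, Aldoc and Eno2 were at least 1.5-fold lower, 3 of 31, where 3.39% of all genes were, and Eno3 at least 1.5-fold higher, where 1.59% were. In the intermediate gate 23 of 27 were lower, where 59.0% of all genes were (median -0.18 beside -0.05). Slc2a1 and Hk2 were at least 1.5-fold lower there (3.92% of all genes) and Eno3 and Pdk3 higher (1.18%).

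In monocytes 22 of 31 were lower, where 49.3% of all genes were (median -0.12 beside 0.00). Hk2, Pfkfb4, Eno2 and Slc16a1 were at least 1.5-fold lower (2.56% of all genes) and Eno3 higher (1.04%). In patrolling monocytes 17 of 22 were lower, where 53.2% of all genes were (median -0.15 beside -0.02). Slc2a1 was at least 1.5-fold lower there (3.32%) and Eno3 higher (3.11%). With the 4 gates pooled, 26 of 31 members were lower, where 58.9% of all genes were (median -0.17 beside -0.05). Of these members 2, Hk2 and Eno2, were at least 1.5-fold lower (3.85%), and Eno3 was at least 1.5-fold higher (1.35%). With a ratio in all 4 gates were 22 members, of which 14 were lower in each of the 4 and 3 higher in each. The matching shares over all genes are not given here. The summed level was 0.969 times WT in macrophages, 0.884 in the intermediate gate, 0.957 in monocytes and 0.902 in patrolling monocytes. The median of all genes was 0.957, 0.963, 1.003 and 0.984 times WT in the same gates, so that in macrophages the sum lay above the median gene. With second-lineage barcodes counted, 1 member was past 1.5-fold in each of the macrophage (Eno3), intermediate (Eno3) and monocyte (Slc16a1) gates. Without them the counts were 4, 4 and 5. Shares of all genes with second-lineage barcodes counted are not given here.

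**Figure D3:**
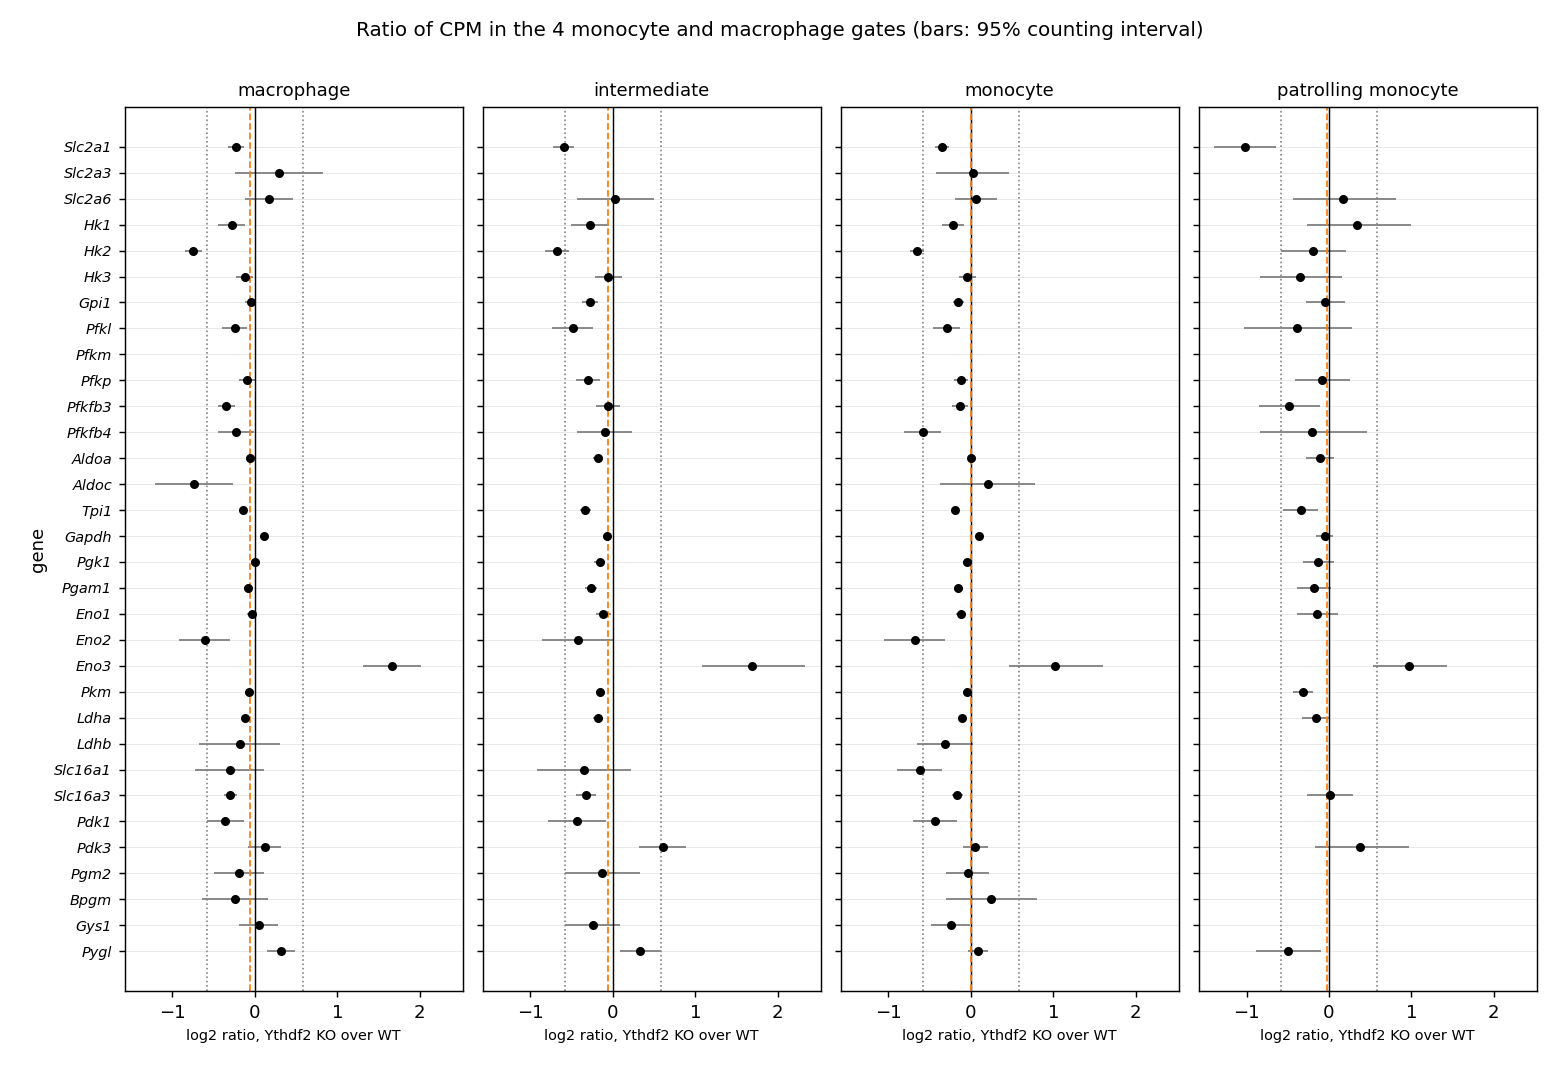
Log2 ratio of Ythdf2 KO over WT for each member with at least 100 UMIs, in the macrophage, intermediate, monocyte and patrolling monocyte gates; bars are 95% counting intervals, the orange dashed line is the median of all genes and dotted lines mark 1.5-fold. Hk2 lies at -0.75, -0.68 and -0.66 in the first 3 gates, while Eno3 lies at 1.66, 1.69 and 1.03.

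The make-up of the macrophage gate moved with these values. Barcodes with a UMI of Arg1 (arginase, a gene of tumour macrophages) were 40.2% of WT macrophages and 21.2% of Ythdf2 KO ones, and 19.3% and 6.6% of monocytes. Members summed higher in Arg1 barcodes, at 8180 and 8770 CPM in macrophages against 5676 and 5842 in those without Arg1. Within either stratum the sum was slightly higher in the Ythdf2 KO library (1.07, 1.06 to 1.09, and 1.03, 1.02 to 1.04), whereas over the whole gate it was lower (0.969). Over the 4 monocyte and macrophage gates weighted alike in both libraries the sum was 0.943 times WT (0.938 to 0.948). It turned to 1.02 (1.01 to 1.02) when the gates were also split by Arg1. The median log2 ratio of the 31 members stayed below 0, at -0.15 without the Arg1 split and -0.12 with it.

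Single members behaved differently under this split. Slc2a1 in macrophages was at 141 and 137 CPM with Arg1 and at 77.6 and 74.6 without, ratios of 0.973 (0.880 to 1.08) and 0.961 (0.874 to 1.06). Hk2 was lower in both strata, at 130 and 88.8 with Arg1 (0.685, 0.608 to 0.771) and at 104 and 61.9 without (0.595, 0.541 to 0.653). With make-up fixed over the 4 gates the Hk2 ratio was 0.626 (0.600 to 0.652), and 0.645 (0.618 to 0.673) with the Arg1 split. Slc2a1 went from 0.762 (0.732 to 0.792) to 0.849 (0.815 to 0.884) and Gapdh from 1.04 to 1.14. Arg1 was used here as a label of barcodes, and what it stands for in these cells was not tested.

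Most members were higher in barcodes with more UMIs of hypoxia-responsive genes. Barcodes of a gate were put into 5 equal bins, over both libraries, by the UMIs per 10000 UMIs of 18 hypoxia-responsive genes that hold no member, such as Vegfa, Bnip3 and Egln3. From the lowest to the highest bin, members in macrophages went from 3858 to 10993 CPM in WT and from 3976 to 11566 in Ythdf2 KO. In monocytes they went from 4037 to 13298 and from 4280 to 13108. The median member was 2.21 and 2.74 times higher in the top bin of macrophages than in the bottom one, and 3.01 and 2.96 times in monocytes, while the median of all genes was 0.947 and 0.945, and 0.962 and 0.934. At least 2-fold higher in the top bin were 18 of 31 members in macrophages of either library and 20 of 31 in monocytes, against 2.92% and 3.43%, and 5.79% and 5.23%, of all genes.

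Members differed along these bins. Slc2a1 was 6.19 and 6.47 times higher in the top than in the bottom bin of macrophages, Tpi1 4.07 and 4.92 times, Pgk1 4.52 and 4.37 times, Slc16a3 3.97 and 3.17 times, Pdk1 3.46 and 3.94 times, and Gys1 6.47 and 6.03 times. Hk3 was nearly level (1.11 and 1.32), and Eno3 (0.926 and 0.531), Slc2a6 (0.775 and 0.371) and Ldhb (0.410 and 0.397) were lower in the top bin. These 3 rest on few UMIs, from 6 to 55 in each of these bins, and they were lower in the top bin of monocytes of both libraries as well. With Mif left out of the list, an alternative added after seeing the data, the WT macrophage values turned to 1.27 for Eno3 and 1.04 for Slc2a6, and the Ythdf2 KO monocyte value to 1.05 for Ldhb. Bins of 1 library are not replicates, and the bins are cut from a score, so these are ranges and not cell types.

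**Figure D4:**
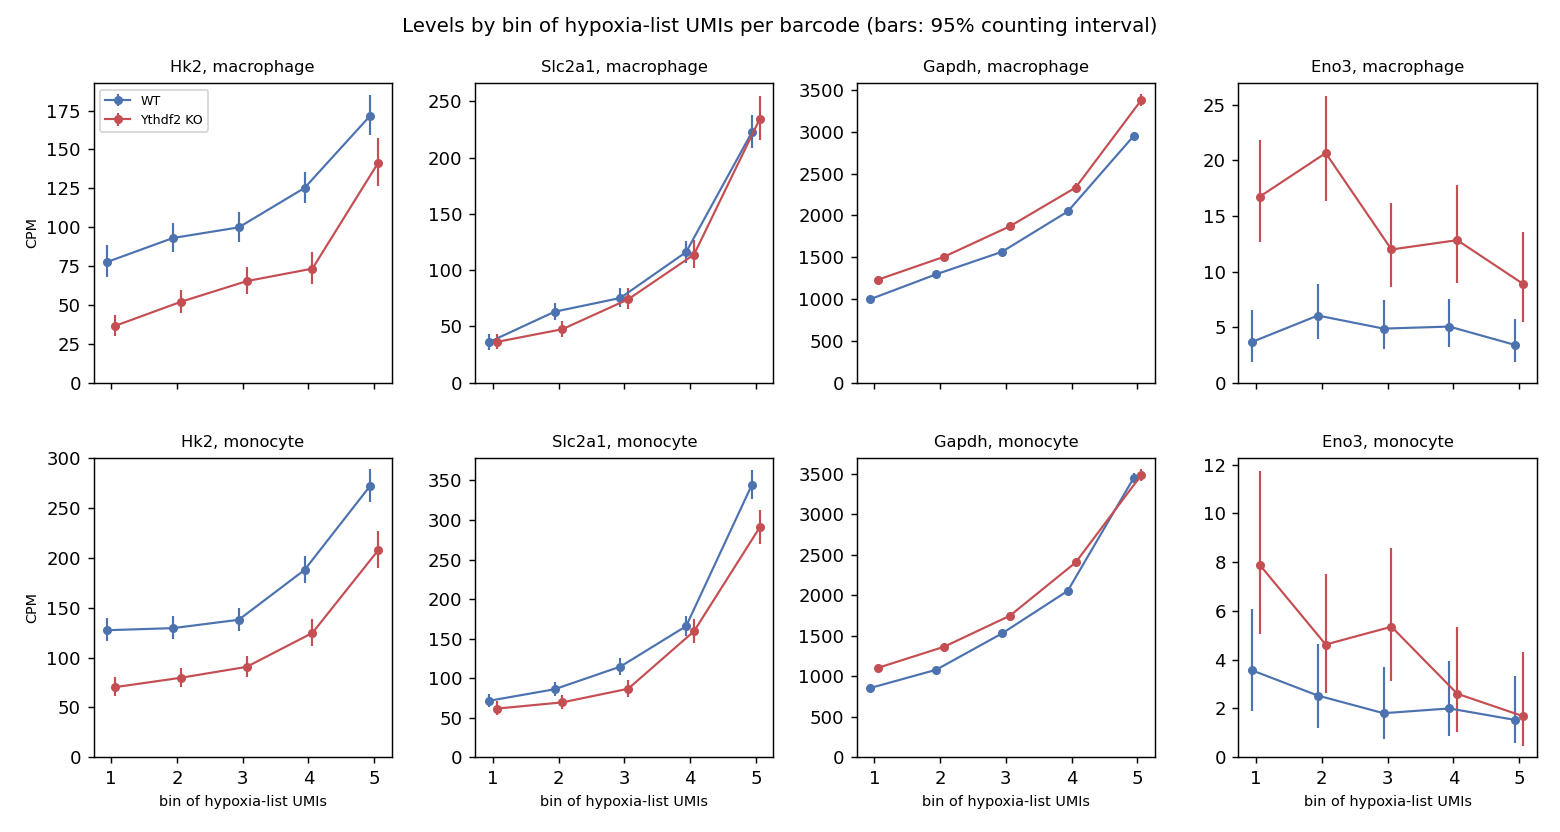
Levels of Hk2, Slc2a1, Gapdh and Eno3 (CPM) along 5 bins of hypoxia-list UMIs per barcode (bin 1 lowest, bin 5 highest) in macrophages (top) and monocytes (bottom), WT in blue and Ythdf2 KO in red, with 95% counting intervals. In macrophages Hk2 goes from 77.6 to 172 in WT and from 36.5 to 141 in Ythdf2 KO, and the Ythdf2 KO points lie below those of WT in each bin.

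Fewer Ythdf2 KO barcodes were in the top bin, 17.9% against 21.3% in macrophages and 17.1% against 22.1% in monocytes. Within bins, Hk2 was lower in the Ythdf2 KO library in all 5 bins of both gates, with ratios from 0.470 in the lowest bin to 0.823 in the highest bin of macrophages and from 0.552 to 0.762 in monocytes. Hk1 was lower in all 5 bins of both gates too, but with Mif left out of the list 1 macrophage bin was higher (1.025). Slc2a1 was between 0.754 and 1.05 in macrophages, lower in 3 bins and higher in 2, and between 0.756 and 0.961 in monocytes. Gapdh was higher in all 5 bins of both gates, by 1.14 to 1.23 times in macrophages and 1.01 to 1.29 times in monocytes.

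T cells went the other way from the myeloid gates. Of 15 members with a ratio, 10 were higher in the Ythdf2 KO library and 5 lower, with a median log2 ratio of 0.24 beside -0.01 over all genes. Of all genes tested in T cells, 51.0% were lower. Slc2a3 and Pgam1 were at least 1.5-fold higher, where 2.70% of all genes were, and no member was at least 1.5-fold lower, where 4.36% were. Gapdh stood at 1114 and 1664 CPM (1.49, 1.41 to 1.58), Pgam1 at 113 and 176 (1.55, 1.29 to 1.87) and Tpi1 at 188 and 267 (1.42, 1.23 to 1.65). Aldoa (452 and 577), Pgk1 (248 and 326), Ldha (550 and 722) and Pkm (425 and 501) were higher as well, with intervals above 1, while Hk1, Hk2, Pfkp and Slc16a3 were below 1 with intervals that included it. The gate held 489 and 325 barcodes, and with second-lineage barcodes counted its median log2 ratio turned to -0.04, with Slc2a3 at 0.49, Gapdh at 0.20 and Pgam1 at 0.16.

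The T cell gate did not hold the same cells in both libraries. CD8 T cells (at least 2 UMIs of Cd8a and Cd8b1, no Foxp3 UMI) were 60 of 489 and 65 of 325 barcodes, and gamma-delta T cells 152 and 67. The gamma-delta subset needed at least 3 UMIs of Trdc, Tcrg-C1 and Il17a, under 2 CD8 UMIs and no Cd4 or Foxp3 UMI. Members summed to 6021 and 7444 CPM in CD8 T cells (1.24, 1.17 to 1.30), to 5682 and 6902 in Foxp3 T cells (1.21, 1.09 to 1.35), to 5352 and 4976 in CD4 T cells without Foxp3 (0.930, 0.811 to 1.06) and to 3252 and 3220 in gamma-delta T cells (0.990, 0.910 to 1.08). The T cells of no subset, 205 and 151 barcodes, stood at 3060 and 3193 (1.04, 0.978 to 1.11), with a Gapdh ratio of 1.02 (0.901 to 1.16). Gapdh in CD8 T cells was at 1866 and 2621 (1.41, 1.28 to 1.55), and Slc2a3 there at 60.1 and 132 (2.20, 1.33 to 3.81) from 20 and 74 UMIs. With the 5 T cell subsets weighted alike, the sum was 1.09 times WT (1.05 to 1.12) where it was 1.30 without weights, Slc2a3 2.06 (1.48 to 2.88), and the median log2 ratio of the members 0.08.

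The 4 cycling genes (Mki67, Top2a, Cdk1 and Birc5) summed to 214 and 283 CPM in T cells. The share of cycling barcodes was nearly the same in both libraries, 8.4% and 8.6% of the T cell gate. Barcodes with no cycling UMI were 83.4% and 82.5%. Gate levels are sums of UMIs, so a barcode with more UMIs weighs more than its barcode share. Of the member UMIs of the gate, cycling barcodes held 1499 of 7806 in WT and 2492 of 7413 in Ythdf2 KO. The difference in summed members was larger in cycling T cell barcodes, 41 and 28 of them, at 5164 and 8278 (ratio 1.603). In those with no cycling UMI members summed to 3693 and 4134 (1.12, 1.07 to 1.17). Slc2a3 was at 27.8 and 71.5 in T cells with no cycling UMI (2.57, 1.73 to 3.87). The part of subset and cycling in the single genes was measured only by these splits.

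**Figure D5:**
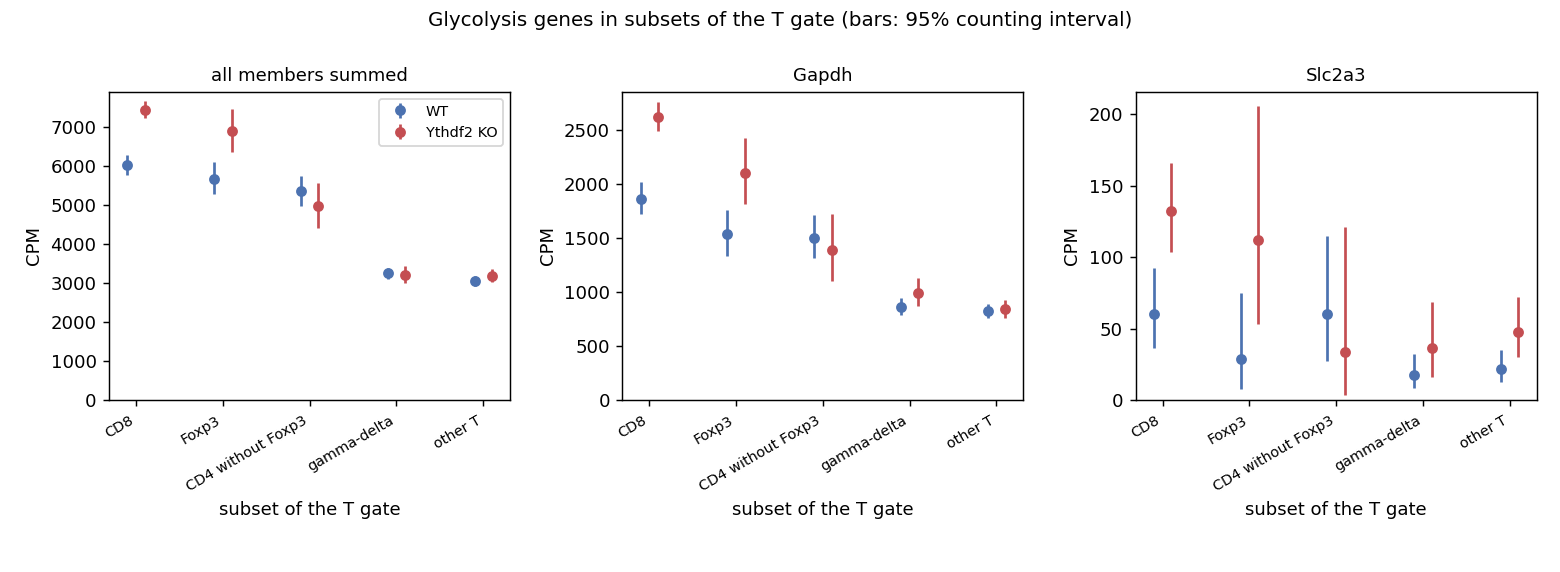
Summed members, Gapdh and Slc2a3 by T cell subset, in CPM, for WT (blue) and Ythdf2 KO (red), with 95% counting intervals. Summed members stand at 6021 and 7444 in CD8 T cells and at 3252 and 3220 in gamma-delta T cells.

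NK cells, the other lymphocytes with many barcodes (2174 and 1224), leaned the other way from T cells for most members. There 22 of 27 members were lower and 5 higher, with a median log2 ratio of -0.13 beside -0.05 over all genes. Of all genes tested in NK cells, 61.7% were lower. Pfkfb3 was at least 1.5-fold lower (2.36% of all genes) and Slc2a3 higher (0.975%). Of 15 members with a ratio in both gates, 9 were above 1 in T cells and below 1 in NK cells, where Gapdh was at 1784 and 1774 and Ldha at 974 and 906. The other 6 were on the same side of 1 in both gates: Slc2a3 above, and Slc2a1, Hk1, Hk2, Pfkp and Slc16a3 below. The difference between the gates was not tested. In T cells 51.0% of all genes tested were lower, beside the 61.7% in NK cells. The share of all genes above 1 in T cells and below 1 in NK cells is not given here. Slc2a3 in NK cells was at 35.2 and 74.4 CPM in cycling barcodes (2.11, 1.82 to 2.46) and at 40.6 and 61.3 in those without a cycling UMI (1.51, 1.31 to 1.74). Cycling genes summed to 382 and 373 there, and the T cell markers to 15.3 and 14.3.

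In neutrophils 13 of 21 members were lower and 8 higher (median -0.08 beside 0.01), and none passed 1.5-fold in either direction, where 3.71% of all genes were at least 1.5-fold lower and 4.49% higher. In mature dendritic cells 15 of 17 were lower (median -0.20 beside -0.02), again with none past 1.5-fold (2.91% and 1.96%); Ldha (0.696), Aldoa (366 and 257; 0.701, 0.620 to 0.792) and Gpi1 (111 and 79.3; 0.716, 0.571 to 0.893) were the lowest of those with intervals below 1. With second-lineage barcodes counted the median of this gate was -0.01, the log2 ratios of Ldha (0.36), Tpi1 (0.22), Gapdh (0.24) and Hk2 (0.22) turned, that of Gpi1 was -0.01 and that of Aldoa -0.27, and Pgam1 went from -0.02 to 0.91, past 1.5-fold. In plasmacytoid dendritic cells 10 of 11 were lower (median -0.19 beside 0.01) and none past 1.5-fold (4.59% and 3.12%). In cDC1 8 of 11 were lower, with Pgam1, at 421 and 270, at least 1.5-fold lower (2.85%; none higher, 5.91%). In B cells only 4 members had a ratio, all lower, and Pkm and Ldha were at least 1.5-fold lower (5.16%; none higher, 2.69%) from 98 and 262 barcodes. The shares of all genes that were lower were 49.0% in neutrophils, 52.8% in mature and 47.7% in plasmacytoid dendritic cells, 46.4% in cDC1 and 51.1% in B cells.

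Pathways that branch from or follow glycolysis were set beside the members in macrophages and monocytes. Of the 7 genes of the pentose phosphate pathway, which draws on glucose 6-phosphate for NADPH and ribose, 5 were higher and 2 lower in Ythdf2 KO macrophages (median log2 ratio 0.18) and 7 higher in monocytes (0.11). Transketolase, Tkt, stood at 111 and 159 CPM in monocytes (1.42, 1.34 to 1.51). Of 15 genes of the tricarboxylic acid cycle, 11 were higher in macrophages (0.09) and 14 in monocytes (0.23). Of the 11 genes of pyruvate entry into the mitochondrion 9 had a ratio, and 6 (0.17) and 8 (0.16) of these were higher. None of these 3 lists had a gene past 1.5-fold in either gate. Among all genes tested, 61.4% were lower in macrophages (median -0.06) and 49.3% in monocytes (0.00).

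Genes of the hypoxia list outside glycolysis were lower, 11 of 14 with a ratio in macrophages (median -0.20) and 13 of 14 in monocytes (-0.24). All genes tested were lower in 61.4% of cases in macrophages (median -0.06) and in 49.3% in monocytes (0.00). Vegfa, the angiogenic factor, was at 169 and 96.2 CPM in macrophages (0.568, 0.534 to 0.603), and Hif1a, the oxygen-regulated subunit of HIF-1, at 242 and 193 (0.795, 0.759 to 0.831) in macrophages and 384 and 287 (0.749, 0.721 to 0.777) in monocytes. Of 12 further glycogen genes 9 had a ratio, 8 of them lower in macrophages (-0.25) and 7 in monocytes (-0.13). The part of Hif1a or of the hypoxia response in the values of the members was not tested.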

How the data were processed

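The matrices the authors deposited hold raw UMI counts per gene and barcode, whole numbers without normalization, per the file headers. Cell Ranger 5.0.1, Seurat 4.0.4 and mm10 are named per the submitters' processing notes, whereas the matrix header names Cell Ranger 6.1.1, so the version is not settled. A 5′ kit is named per the labels' protocols.

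Barcodes with at least 500 UMIs, at least 200 genes and at most 10% mitochondrial UMIs were kept (20415 WT and 15844 Ythdf2 KO). Gates required marker UMIs: at least 3 for T, NK, B and cDC1, 20 for neutrophils, 10 for mature and 5 for plasmacytoid dendritic cells. Monocytes and macrophages needed at least 3 UMIs of lineage markers (Csf1r, Adgre1 and Fcgr1 among them; the full list is not reported here), with at least 10 complement UMIs (C1qa, C1qb, C1qc) for macrophages, at most 2 of these and at least 5 of Ly6c2, Vcan and Chil3 for monocytes, and at least 3 of Ace, Adgre4 and Treml4 with under 10 complement UMIs for patrolling monocytes. Monocytes could also hold at most 1 UMI of Ace, Adgre4 and Treml4. Lineage barcodes that fell in none of these gates formed the intermediate gate. Gate limits were set after marker UMI distributions and cell numbers had been seen. Ccr2 was dropped from the lineage markers because NK and T cells transcribe it. No doublet caller was run; barcodes with markers of a second lineage were set aside instead, 5544 and 4470 of them, and 1631 and 1350 barcodes met no gate.

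The members and gene lists were chosen with earlier results of these data known. All 32 members are named by rule, and other genes only from the lists. UMIs were summed per gate and library. Ratios carry exact conditional binomial intervals, levels exact Poisson and shares exact Clopper-Pearson intervals (95%); intervals of make-up fixed ratios are normal approximations on the log scale. Genes needed 100 UMIs in both libraries together, or 20 in subsets of the T cell gate, and all-gene values are over every gene with at least 100. The ratio step was tested on simulated data. Gene positions come from GENCODE vM21 (GRCm38, the build called mm10) and promoters from RefSeq. Intervals were computed with scipy 1.17.1, tables with pandas 2.3.3 and numpy 2.4.6 under Python 3.11.15, and plots with matplotlib 3.10.9. Alternatives were another scaling, denominators, gene minimums, folds, marker minimums, depth limits, per-barcode means and second-lineage barcodes counted; leaving out shared barcodes, barcodes with patrolling markers and Mif were added after seeing the data.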

Additional observations from a re-analysis of the deposited data

Results flagged for a closer look

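Pgam1, phosphoglycerate mutase, lay past 1.5-fold in opposite directions in 2 gates. Its log2 ratio of Ythdf2 KO over WT was -0.64 in cDC1, at 421 and 270 CPM from 55 and 50 barcodes, and 0.63 in T cells, at 113 and 176 from 489 and 325 barcodes. The difference between these gates was not tested, since each genotype is 1 library. Cycling genes summed to 90.3 and 243 CPM in cDC1 and to 214 and 283 in T cells, and the part of cycling in cDC1 was not tested. In T cells with no cycling UMI the Pgam1 ratio was 1.29 (1.02 to 1.63), with the 5 subsets weighted alike it was 1.33 (1.09 to 1.61), and with second-lineage barcodes counted in their leading gate the log2 ratio was 0.16, each under 1.5-fold.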

How the results depend on the processing

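No paired analysis was possible because each genotype is 1 library, and for the same reason no replicate could be left out. In the 8 gates with the most UMIs, 19 of 191 member and gate pairs were past 1.5-fold. By gate, 2.36% to 4.36% of all genes there were at least 1.5-fold lower and 0.975% to 4.49% higher. All 213 values of these 19 pairs under the alternatives lay on the same side of 0, and 173 were still past 1.5-fold. The 19 were picked as past 1.5-fold and the alternatives draw on the same 2 libraries, so this agreement is no independent check. With second-lineage barcodes counted in their leading gate, the members' median was -0.013 in mature dendritic cells and turned to -0.037 in T cells, and members past 1.5-fold were 1 in macrophages, 1 in the intermediate gate, 1 in monocytes, 0 in T cells and 1 in NK cells. Under that setting the Hk2 share of hexokinase UMIs in WT macrophages was 43.2%, the Hk3 share 34.7% and 40.3%, the Ldhb share in plasmacytoid dendritic cells 17.9% and 12.04%, the Slc2a3 share in neutrophils 51.6% and 49.1%, and, in Ythdf2 KO, the Eno3 share in mature dendritic cells 38.2% and the Slc2a3 share in NK cells 56.6%. Means of per-barcode values gave a median of -0.320 in mature dendritic cells and 1 member past 1.5-fold in the intermediate gate. Without barcodes carrying Ace, Adgre4 or Treml4 UMIs, an alternative chosen after seeing the data, 2 members in macrophages, 1 in the intermediate gate and 3 in monocytes were past 1.5-fold. A minimum of 1 UMI in each library gave 7 in the intermediate gate, 8 in T cells and 5 in NK cells, since more genes are then compared, and a limit at a ratio of 5 to 4 gave 11, 9 and 7, where 14.6% of all genes were lower and 6.01% higher by that limit in the intermediate gate, 16.0% and 11.9% in T cells and 10.6% and 4.11% in NK cells. A minimum of 300 UMIs gave 3 in monocytes and 1 in T cells, and a limit of 20000 UMIs per barcode 1 in T cells. Barcodes without cycling UMIs gave 1 in T cells and 1 in NK cells. Except for the limit at 5 to 4, the matching shares of all genes under these alternatives are not given here. Split by Arg1, the make-up fixed ratio was 0.849 for Slc2a1 and turned to 1.02 for the sum of all members. The median log2 ratio of the members was -0.12 under that split. Thinned to 2000 UMIs, the share of barcodes with a UMI differed by -6.35 percentage points for Hk2 in macrophages and -5.02 for Slc2a1 in monocytes. For other moves the cause was not tested. Depth limits the small gates: 4 members in B cells and 11 in cDC1 reached 100 UMIs.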

Other observations

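In neutrophils the pentose phosphate genes stood apart from those of macrophages. Of the 5 with a ratio, 4 were lower in the Ythdf2 KO library, where 49.0% of all genes were. At least 1.5-fold lower were 3 of them, where 3.71% of all genes were, and the median log2 ratio was -0.60 beside 0.01 over all genes. In macrophages Txnip, an inhibitor of glucose uptake and thioredoxin, stood at 341 and 242 CPM (0.710, interval 0.682 to 0.738). Without Mif, the most abundant gene of the hypoxia list, members went from 4248 to 10617 CPM along the bins of WT macrophages and from 4328 to 11088 in Ythdf2 KO ones.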
